A study of Homo sapiens with 19 samples.

Results

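Neuroblastoma cells of the sympathetic type keep their identity through a small set of transcription factors. The mRNAs of 8 of them are described here: MYCN, MYC, PHOX2A, HAND2, GATA3, ISL1, TBX2 and SOX11. The genes were taken as a list of names and found by Gene ID, and the rule used no measured value. All 8 had 1 row each among the 19942 protein-coding genes of the TPM and eCLIP tables, and 31 of the 256980 transcripts in the rRNA-depleted table belonged to them.

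In sympathetic neuroblasts such factors bind one another's enhancers and their own, so that the set is switched on as a circuit, and it is known as the adrenergic core circuit of neuroblastoma. PHOX2A (ENSG00000165462, GRCh38 chromosome 11, 72239077 to 72245664, minus strand) is a homeodomain factor that activates the noradrenaline-making enzyme gene DBH. HAND2 (ENSG00000164107, chromosome 4, 173524969 to 173530229, minus strand) is a basic helix-loop-helix factor of sympathetic neurons. GATA3 (ENSG00000107485, chromosome 10, 8045378 to 8075198, plus strand) is a zinc finger factor of the same lineage. ISL1 (ENSG00000016082, chromosome 5, 51383448 to 51394730, plus strand) is a LIM-homeodomain factor. TBX2 (ENSG00000121068, chromosome 17, 61399843 to 61409466, plus strand) is a T-box factor best known as a repressor. SOX11 (ENSG00000176887, chromosome 2, 5692384 to 5701385, plus strand) is an HMG-box factor of immature neurons. MYCN (ENSG00000134323, chromosome 2, 15940550 to 15947007, plus strand) is the oncogene amplified in many high-risk neuroblastomas, though not in the line used here, and MYC (ENSG00000136997, chromosome 8, 127735434 to 127742951, plus strand) is its paralog. Both pair with MAX to activate genes of growth and ribosome synthesis, and both have short-lived mRNAs and proteins.

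All samples came from SH-SY5Y, a human neuroblastoma cell line. Stress granules (SGs) are assemblies of untranslated mRNA and protein that form under stress, and G3BP1 and G3BP2 are RNA-binding proteins that build them. The study asked which RNAs the 2 proteins bind, which RNAs enter SGs, and how the transcriptome responds to loss of either protein or to sodium arsenite (AS), an oxidative stressor. Poly-A RNA-seq was made from cells treated with a control siRNA (siCtrl), with siG3BP1 or with siG3BP2. RNA-seq was also made from the cleared lysate of AS-treated cells (Total) and from SG cores (SG), which are G3BP1 immunoprecipitates of the material pelleted from that lysate. Ribosomal RNA-depleted RNA-seq compared untreated cells with cells given AS at 500 μM for 1 hour. In eCLIP, UV light crosslinks RNA to protein before immunoprecipitation, and it was done for G3BP1 and for G3BP2 in untreated and in AS-treated cells, in duplicate. For the other samples the labels give 50 mM AS in place of 500 μM, even where the sample is untreated. Each RNA-seq condition had 1 library, so RNA-seq differences have no replicate check and no p-value, and the siRNA comparisons share the siCtrl library. Nothing says that the eCLIP duplicates came from separate cultures, so their p-values measure only the spread between these libraries.

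Marker genes of both the adrenergic and the mesenchymal kind were expressed, which describes the cells and cannot by itself identify the line. Of 10 adrenergic markers, 9 were above 1 TPM in siCtrl, led by DBH at 872 and STMN2 at 631 TPM, while the tyrosine hydroxylase gene TH was at 0.304 TPM. Of 12 mesenchymal markers, 10 were above 1 TPM there, led by VIM at 1514 and TWIST1 at 468 TPM, while PRRX1 was listed at 0. The 5 markers of blood, endothelial, epithelial and liver cells summed to between 0.194 and 0.67 TPM per library, and PTPRC, CD3E, PECAM1 and ALB were listed at 0 in all of siCtrl, siG3BP1, siG3BP2 and Total. Each siRNA came with less of its target: G3BP1 was at 18.7 TPM in siCtrl and 6.0 in siG3BP1, and G3BP2 at 38.1 TPM in siCtrl and 11.4 in siG3BP2. TPM keeps no depth. The rRNA-depleted values correspond to totals of 13291959 reads without and 11281587 reads with AS. The eCLIP numbers, recovered by rounding, sum to between about 4268911 and 26179736 per library.

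The 8 mRNAs differ widely in length and base composition. By canonical transcript (GENCODE on GRCh38), PHOX2A was the shortest, at 1699 nt with a 672 nt 3′UTR, and SOX11 the longest, at 9002 nt with a 7338 nt 3′UTR, all in 1 exon. The median over 20046 protein-coding genes was 2885 nt, with a 1018 nt 3′UTR. ISL1 (2394 nt), MYCN (2613 nt), HAND2 (2780 nt), GATA3 (3083 nt), TBX2 (3433 nt) and MYC (3721 nt) lay nearer to it. GC content was between 45.36% in ISL1 and 66.51% in PHOX2A, and TBX2, at 66.06%, was close to PHOX2A. Both lay above 97% of protein-coding genes. The motif CCAGCCTGG and its reverse complement CCAGGCTGG, looked for because of its link to G3BP binding, were searched on the sense strand of the canonical transcripts. None of the 8 members held it, against 28.0% of the 20046 genes. The AU-rich nonamer UUAUUUAUU, the core of elements that shorten mRNA life, was searched in 3′UTRs and was present in ISL1 and SOX11, against 8.2% of genes. A match is only a match of letters, and the absence of a match says only that these letters are not in the searched transcript.

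Both AU-rich sites are shown because ISL1 and SOX11 differ in the measurements that follow although they share this element. They are printed 5′ to 3′ as RNA, with the nonamer in capitals, and lie in the 3′UTR on the plus strand of GRCh38, at chr5:51394496-51394525 for ISL1 and chr2:5701145-5701174 for SOX11.
ISL1: aaguaauuuaUUAUUUAUUgucggaagacu
SOX11: aaauuaagcaUUAUUUAUUgaaaacuaugu

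In unstressed cells with siCtrl, HAND2, PHOX2A and GATA3 were among the most abundant mRNAs, and SOX11 and MYCN were not. HAND2 was at 874 TPM, above 99.2% of the genes over 1 TPM, followed by PHOX2A at 719 and GATA3 at 373 TPM. TBX2 was at 171, ISL1 at 105 and MYC at 84.5 TPM. SOX11, at 33.0 TPM, and MYCN, at 15.8 TPM, were the lowest. SOX11 lay above 71.6% and MYCN above 53.1% of the expressed genes. MYC was therefore the more abundant of the 2 paralogs, by TPM, in siCtrl. The order of all 8 was the same in siCtrl, siG3BP1 and siG3BP2. In rRNA-depleted RNA of untreated cells, where values were RPKM of the canonical transcript, HAND2 was at 149, GATA3 at 75.1, PHOX2A at 70.6 and SOX11 at 33.9 RPKM, and MYCN was lowest at 1.84 RPKM. The order depended on the choice of transcript. By the sum over a gene's transcripts GATA3, at 343 RPKM over 5 transcripts, was above HAND2, at 330 over 3. SOX11, which has 1 transcript, was 7th by this sum. A read counts for every transcript it overlaps in these values, so the sum rises with the number of annotated transcripts. The summed order is therefore not an order of abundance. With 1 library a condition, whether neighbours in these orders differ beyond the spread between replicates was not testable.

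**Figure D1:**
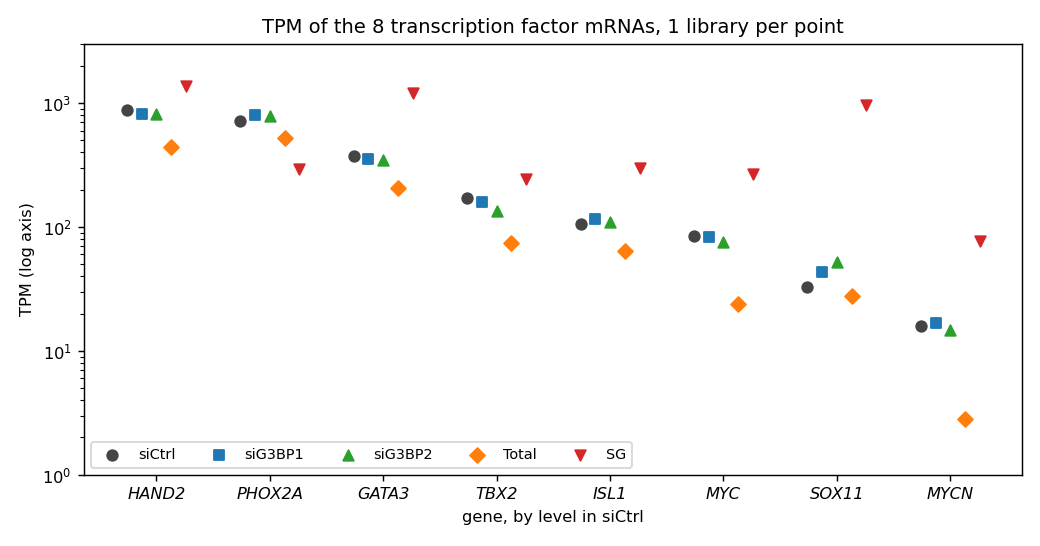
TPM of the 8 mRNAs on a log axis in the 5 TPM libraries, 1 point per library, ordered by the level in siCtrl. The siCtrl, siG3BP1 and siG3BP2 points lie close together for each gene, Total is below siCtrl for all 8, and SG is the highest point for every gene except PHOX2A, where it is the lowest at 296 TPM.

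The largest differences were between SG cores and the lysate they came from. SOX11 was at 27.9 TPM in Total and 969 TPM in SG, a ratio of 34.7. MYCN was at 2.82 TPM in Total and 77 in SG, a ratio of 27.3, and MYC at 24.0 and 268 TPM, a ratio of 11.2. These 3 had the lowest levels of the 8 in siCtrl. GATA3 was at 206 TPM in Total and 1217 in SG (ratio 5.9), and ISL1 at 64.5 and 300 TPM (ratio 4.66). TBX2, at 73.8 and 244 TPM, had a ratio of 3.3, and HAND2, at 440 and 1371 TPM, a ratio of 3.12. PHOX2A alone went the other way, at 518 TPM in Total and 296 in SG, a ratio of 0.571. With SG the order of abundance changed: SOX11 moved from 6th in Total to 3rd in SG, and PHOX2A from the first place to the 5th.

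A gene was called higher at a fold change above 2 with more than 1 TPM in SG, and lower at a fold change below 0.5 with more than 1 TPM in Total. The thresholds are those of the study. The fold was taken on TPM + 1, which the paper does not state. It called 8528 genes higher, the same number as the SG-enriched protein-coding genes of the paper. By this rule 7 of the 8 members were higher in SG and PHOX2A was not called. Of the 13560 genes tested 62.9% were higher and 9.45% lower, so the count of 7 stands against a background in which most genes were higher. The median log2 ratio of TPM + 1 was 2.38 over the members and 1.51 over all genes tested. Among all genes tested SOX11, at a log2 ratio of 5.07, lay at percentile 97.8, MYCN (4.35) at 94.3 and MYC (3.43) at 85.4. GATA3 (2.56) lay at percentile 71.5 and ISL1 (2.2) at 64.6. TBX2 (1.71), at percentile 54.5, and HAND2 (1.64), at 52.9, were near the middle, and PHOX2A (-0.81) was at 11.1.

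Because TPM sums to a fixed total, the level of the typical gene was set to equality as an alternative. Over genes that passed 1 TPM in SG and in Total the median ratio was 2.777, and after dividing by it SOX11 (log2 3.6), MYCN (2.91), MYC (1.97) and GATA3 (1.08) were still called higher. ISL1 (0.74), TBX2 (0.25) and HAND2 (0.17) were no longer called, and PHOX2A (-2.27) was called lower. After this rescaling 33.2% of all genes tested were called higher and 24.1% lower. The call of SOX11, MYCN, MYC and GATA3 as higher thus held under both scalings, and no member changed sign. Relative to the typical gene PHOX2A was lower in SG.

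**Figure D2:**
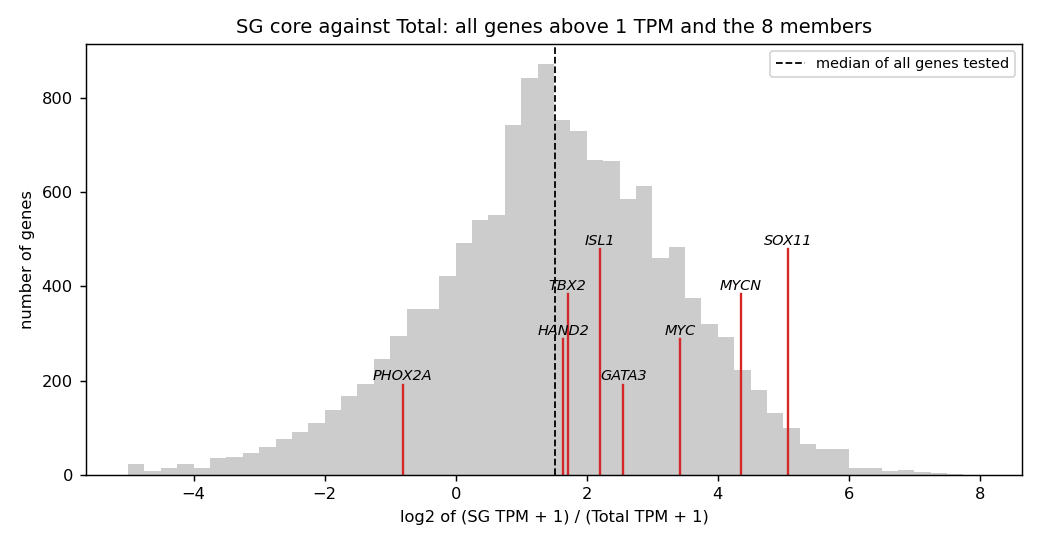
Histogram of the log2 ratio of TPM + 1 in SG against Total for the 13560 genes above 1 TPM in either library, with values beyond the axis put in the end bars. Red lines mark the 8 members, whose heights carry no meaning, and the dashed line marks the median of all genes, 1.51. PHOX2A at -0.81 lies left of 0, HAND2 and TBX2 lie beside the median, and SOX11 lies far to the right at 5.07.

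The level in Total was itself low. All 8 members were lower in Total than in siCtrl, from a ratio of 0.179 for MYCN and 0.283 for MYC to 0.721 for PHOX2A and 0.844 for SOX11. The median log2 ratio of Total to siCtrl was -0.92 over the members and -0.41 over all 12173 genes above 1 TPM in either. Total and siCtrl differ in AS, in siRNA and in lysate preparation, which cannot be told apart here. The paper names poly-A libraries for the siRNA cells and gives no selection for Total and SG, so library selection may differ too. In such bulk samples fewer cells of a type and less RNA per cell cannot be told apart either. Set against siCtrl in place of Total, SOX11 in SG remained high at a ratio of 29.3, whereas MYCN came to 4.89, GATA3 to 3.27, MYC to 3.17, ISL1 to 2.86, HAND2 to 1.57 and TBX2 to 1.43. PHOX2A was at 0.411. SOX11 was therefore the member with the highest SG ratio under either reference, and PHOX2A the one with the lowest. Both ratios rest on the same SG library.

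Across the 8 mRNAs the SG ratio ran against abundance. Spearman's correlation between the log2 ratio of SG to Total and TPM in siCtrl was -0.88 over the 8 members and -0.42 over 13549 genes. The same coefficient with canonical transcript length was 0.60 over the members and 0.70 over 13537 genes, and with GC content it was -0.67 and -0.22. The 9002 nt SOX11 and the 1699 nt PHOX2A stand at the ends of both length and ratio, but MYCN, at 2613 nt shorter than the median gene, had the second highest ratio. ISL1 and SOX11, the members with the AU-rich nonamer, had ratios of 4.66 and 34.7. These are descriptions across genes, which share 2 libraries and are not independent replicates, and no p-value is given.

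Related genes were counted in the same comparison, to be read against the 62.9% of all genes called higher and 9.45% called lower. Of 20 other transcription factors of the adrenergic lineage, 19 were above 1 TPM, of which 15 were higher in SG, none was lower, and the median log2 ratio was 2.62. They ran from KLF7, a zinc finger factor at 5.36 TPM in Total and 270 in SG, and TBX3, a T-box factor at 31.9 and 770 TPM, to HAND1, a paralog of HAND2 at 110 and 173 TPM, and LMO1, a LIM-only cofactor at 69.8 and 41.3 TPM. Of 10 genes of the MYC network of dimerization partners and antagonists, 7 were higher and none was lower, with a median of 2.77. MGA, a MAX partner that represses, was at 0.495 TPM in Total and 66.8 in SG, MNT, a MAX-binding repressor, at 4.31 and 89.3, and MLX, a MAX-like partner, at 47.7 and 23.9 TPM. Of 10 regulators of MYC or MYCN protein, 7 were higher and 1 lower, with a median of 2.54. The ubiquitin ligase HUWE1 was at 14.0 TPM in Total and 450 in SG and the kinase GSK3B at 4.39 and 136 TPM.

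The targets and markers were counted in the same way, against the same share of all genes. Of 12 MYC target genes, 11 were above 1 TPM, of which 2 were higher and 3 lower, with a median log2 ratio of -0.59. CAD, an enzyme of pyrimidine synthesis, was at 20.5 TPM in Total and 176 in SG, and fibrillarin (FBL), a nucleolar protein, at 217 and 22.9 TPM. Of the 10 adrenergic markers 2 of 9 above 1 TPM were higher and none was lower, with a median of -0.24. ELAVL4, a neuronal RNA-binding protein, was at 71.1 and 278 TPM, and GAP43, a growth cone protein, at 69.6 and 41.4 TPM. Of the 12 mesenchymal markers 9 were higher and 1 was lower, with a median of 1.79, from NOTCH2, a receptor, at 1.13 and 260 TPM to vimentin (VIM) at 2178 and 692 TPM. Differences between these lists were not tested.

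After knockdown of G3BP1 or G3BP2 no member was called. The rule was a TPM ratio above 2 or below 0.5 with more than 1 TPM in the higher library. It called 2.53% of 12280 genes higher and 3.69% lower in siG3BP1, and 2.43% of 12229 genes higher and 5.62% lower in siG3BP2, so that 0 of 8 is close to these shares. SOX11 was the member with the largest ratios, at 33.0 TPM in siCtrl, 43.1 in siG3BP1 (ratio 1.3) and 52.5 in siG3BP2 (ratio 1.59). Its log2 ratios of 0.37 and 0.65 lay at percentiles 92.5 and 97.1 of the genes tested, but both share the same siCtrl value. TBX2 was at 171 TPM in siCtrl, 160 in siG3BP1 and 135 in siG3BP2, ratios of 0.937 and 0.79.

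The other members stayed within a narrow range. MYCN was at 15.8, 16.8 and 14.7 TPM in siCtrl, siG3BP1 and siG3BP2, and MYC at 84.5, 82.8 and 76.1 TPM. PHOX2A was at 719, 807 and 783 TPM, HAND2 at 874, 814 and 812, GATA3 at 373, 356 and 350, and ISL1 at 105, 115 and 109 TPM. For these 6 genes every ratio to siCtrl lay between 0.901 and 1.12. The median log2 ratio of TPM + 1 over the members was 0.03 in siG3BP1 and -0.09 in siG3BP2, and over all genes tested -0.08 and -0.12. Relative to a median ratio set to 1, SOX11 came to log2 0.46 and 0.77 and TBX2 to -0.01 and -0.22, and still no member was called.

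The lists gave few calls as well. None of 19 adrenergic factors was called in siG3BP1, and in siG3BP2 PBX3, a homeodomain cofactor, was called lower, from 24.2 to 10.8 TPM. Of the regulators of MYC or MYCN protein, the F-box gene FBXL14 was called lower in both, at 15.2 TPM in siCtrl, 6.77 in siG3BP1 and 6.42 in siG3BP2, and the deubiquitinase gene USP7 in siG3BP2, at 21.1 and 8.06 TPM. The MYC network had 1 call, lower, in siG3BP2, and it was MGA, at 1.66 and 0.638 TPM, which falls below the level set for named genes and was named after its value was seen. The 11 MYC target genes above 1 TPM had no call in either knockdown, with NPM1, a nucleolar chaperone, at 503, 557 and 569 TPM and fibrillarin (FBL) at 147 TPM in siCtrl, 95.6 in siG3BP1 and 141 in siG3BP2. No adrenergic marker was called in either, and of the mesenchymal markers NOTCH2 was called lower in both, at 11.6 TPM in siCtrl, 2.39 in siG3BP1 and 1.87 in siG3BP2.

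In rRNA-depleted RNA after 1 hour of AS, 6 of the 8 members had ratios below 1. Most genes went the other way. By gene sum, 83.3% of 12712 protein-coding genes above 1 RPKM in either library had a log2 ratio of RPKM + 1 above 0. HAND2 was at 149 RPKM in untreated and 147 in AS-treated cells by its canonical transcript, a ratio of 0.988 (95% exact counting interval 0.95 to 1.027, from 5517 and 4626 reads). GATA3 was at 75.1 and 69.5 RPKM (0.925, 0.877 to 0.976) and PHOX2A at 70.6 and 64.2 (0.909, 0.843 to 0.98). SOX11 had the lowest ratio, 0.819 (0.78 to 0.859), from 33.9 to 27.7 RPKM on 4053 and 2816 reads. MYC was at 9.60 and 8.36 RPKM (0.871, 0.756 to 1.002) and TBX2 at 14.5 and 14.0 (0.968, 0.862 to 1.086). ISL1, at 21.1 and 24.1 RPKM (1.145, 1.026 to 1.277), and MYCN, at 1.84 and 2.37 RPKM (1.289, 0.905 to 1.838), were above 1. MYCN rested on 64 and 70 reads, which is why its interval is the widest. The intervals cover counting error only and compare 2 libraries, not the conditions.

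**Figure D3:**
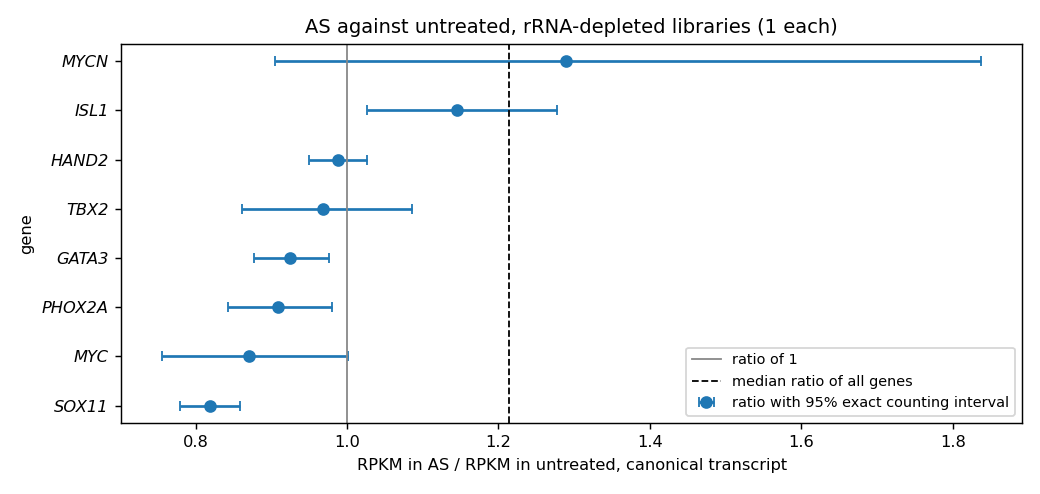
Ratio of RPKM in AS-treated to untreated cells for the canonical transcript of each member, with 95% exact counting intervals of the 2 libraries. The solid line marks a ratio of 1 and the dashed line the median ratio of all genes, 1.214. Of the 8 intervals, those of ISL1 and MYCN alone reach the dashed line, and SOX11 is lowest at 0.819.

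No member was called at a ratio above 2 or below 0.5, for the sum over the transcripts of a gene or for any of the 31 transcripts. Among the 12712 genes tested 7.63% were called higher and 1.41% lower, and among 99587 transcripts 6.86% and 2.02%. Of the members' 31 transcripts 29 were above 1 RPKM in either library, 25 had a ratio below 1 and 5 above 1. The 5 were the 3 of ISL1 and the 2 of MYCN. Of the 99587 transcripts tested, 78.9% had a log2 ratio of RPKM + 1 above 0. A transcript of MYC, with 1 read in untreated and 0 in AS-treated cells, was given no ratio. A read counts for every transcript it overlaps in these values, so the transcripts of 1 gene are not independent of each other.

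The typical gene was at a higher RPKM in the AS library. The median ratio over genes above 1 RPKM in both libraries was 1.214, and the median log2 ratio of RPKM + 1 was 0.27 over all genes tested and -0.14 over the members. By gene sum, MYCN (log2 0.34) lay at percentile 59.3 of all genes tested and ISL1 (0.20) at 40.0. HAND2 (-0.09), TBX2 (-0.13), PHOX2A (-0.14), MYC (-0.18), GATA3 (-0.19) and SOX11 (-0.28) lay between percentiles 10.5 and 4.8. Relative to a median ratio set to 1, MYCN was at log2 0.11, ISL1 at -0.07, and the other 6 between -0.55 for SOX11 and -0.37 for HAND2. The sign of ISL1 thus depended on the scaling.

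Among genes linked to the members a few were called, all higher, where 7.63% of all genes were called higher and 1.41% lower. In the MYC network MXD1 was called higher, at 2.66 and 12.3 RPKM, and MXI1 at 157 and 315 RPKM (sums over transcripts). Both encode MAX partners that repress the targets of MYC. Of the adrenergic factors ISL2, a paralog of ISL1, was called higher, at 2.86 and 9.72 RPKM, and the other 18 above 1 RPKM were not called. Of the regulators the phosphatase subunit gene PPP2R5A was called higher, at 3.22 and 7.36 RPKM. None of 11 MYC target genes above 1 RPKM was called, with NOP56, a nucleolar protein, at 301 and 492 RPKM and LDHA, a glycolytic enzyme, at 184 and 137 RPKM. The markers gave 1 call each, with the granule protein gene CHGA at 69.0 and 164 RPKM and FOSL1 at 0.58 and 2.2 RPKM. The ratios of MXI1 (2.01), PPP2R5A (2.29) and CHGA (2.38) lay near the threshold of 2, and the median gene was at 1.214. Calls in the lists were not repeated with the median ratio set to 1. The median log2 ratio was 0.40 for the MYC network, 0.28 for the regulators, 0.22 for the targets and 0.03 for the adrenergic factors.

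Of the members, 6 lie across from a gene on the opposite strand, so their reads could be exchanged if strand was not used in counting, which is not given in the sources used here. HAND2-AS1, beside HAND2, had 47 transcripts, of which 3 were called lower and 2 higher, against 2.02% and 6.86% of all transcripts tested. The 2 called higher were near the minimum of 1 RPKM, at 0.496 and 1.17 and at 0.42 and 1.24 RPKM. Transcripts of 1 gene share reads, so the 47 are not separate observations. The neighbouring genes were named for their position, and the following transcript for its ratio, the lowest of HAND2-AS1. The transcript ENST00000512099.5 was at 17.7 RPKM in untreated and 4.27 in AS-treated cells (503 and 103 reads), while the 3 transcripts of HAND2 had ratios between 0.875 and 0.988. GATA3-AS1 (5 transcripts) and TBX2-AS1 (6 transcripts) had no call, and none of the 5 transcripts of MYCNOS, beside MYCN, was above 1 RPKM. ISL1 and SOX11 overlapped no named gene.

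eCLIP values were present for nearly all members, with low numbers. Each deposited value was read as a whole number per gene and library, taken to log10 after adding 1, and the number is not scaled between libraries. Only values below 2 were checked for this, and larger numbers were recovered by rounding. MYCN, MYC, HAND2, GATA3, ISL1, TBX2 and SOX11 were above 0 in all 8 libraries, as were 82.6% of all genes, and PHOX2A was listed at 0 in 1 of them, replicate 2 of G3BP1 in untreated cells. In untreated cells GATA3 was at 2.44 and 1.73 for G3BP1 and 2.36 and 1.96 for G3BP2 in replicates 1 and 2, the highest of the members except in replicate 2 of G3BP1, where MYC was at 1.88. TBX2 was at 2.19 and 1.82 for G3BP1 and 2.14 and 1.93 for G3BP2. SOX11 had the lowest mean over the 8 libraries, with 0.60 and 1.23 for G3BP1 and 1.08 and 0.60 for G3BP2, which correspond to numbers of 3, 16, 11 and 3.

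The eCLIP number followed the annotated span of a gene, introns included, rather than its mRNA level, and the members are short genes. Across 19910 genes Pearson's r of the eCLIP value with the summed transcript span, both on the log10 scale, was between 0.858 and 0.868 over the 8 libraries, and r with log10(TPM + 1) in siCtrl between 0.057 and 0.109. Scaled to the same total and divided by that span, the number was 2.25 per kb (median) in 2429 genes listed at 0 TPM in all 5 TPM libraries and 2.15 in 10755 genes above 10 TPM. On this scale TBX2 had a median over the libraries of 3.99 per kb, above 98.0% of genes, HAND2 2.80 (82.7%) and MYCN 2.71 (80.0%). ISL1, at 2.24, lay in the middle (50.2%). GATA3 at 1.82 (28.4%), MYC at 1.75 (26.2%), PHOX2A at 1.09 (15.2%) and SOX11 at 0.625 (10.8%) were lower. Single libraries spread widely, from 0.362 to 11 per kb for HAND2 and from 0.223 to 4.2 for SOX11. SOX11, the member with the highest SG ratio, thus had the lowest eCLIP number per kb, and Spearman's correlation between the SG ratio and the mean scaled eCLIP value was -0.02 over the 8 members and 0.36 over 13549 genes.

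**Figure D4:**
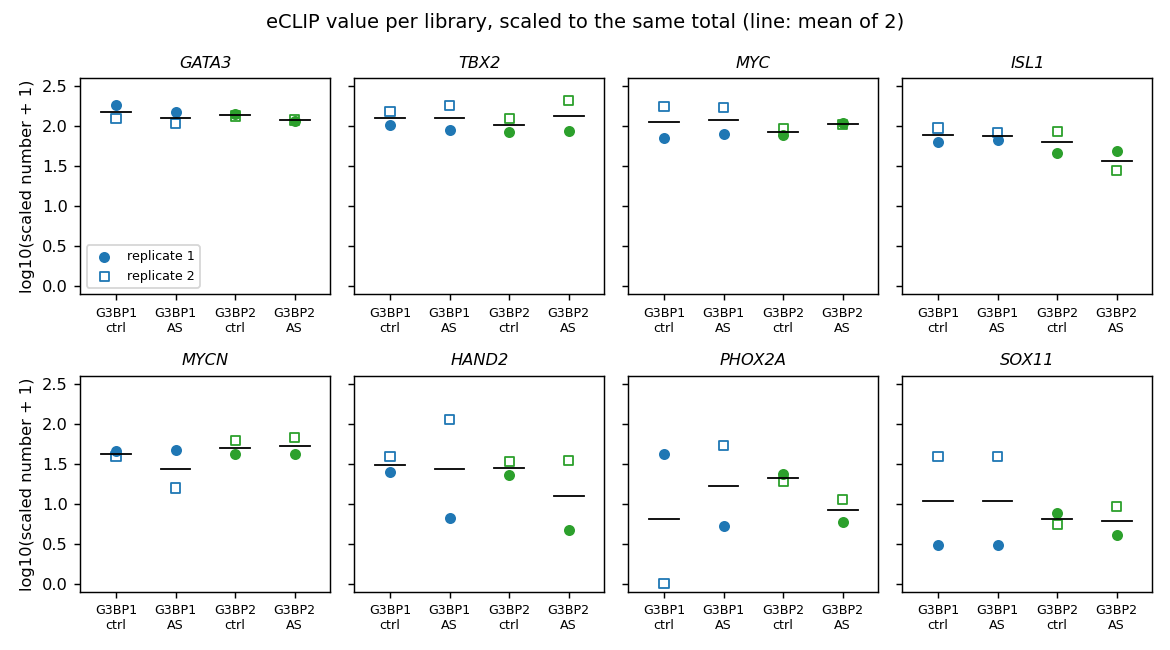
eCLIP value of each member, as log10 of the number scaled to the same total plus 1, in the 4 groups. Filled circles are replicate 1, open squares replicate 2 and lines the mean of the 2. The duplicates of HAND2, PHOX2A and SOX11 are far apart in at least 1 group, those of GATA3 lie between 2.04 and 2.27 in all 4, and PHOX2A has 1 point at 0.

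No member passed the test for a change of its eCLIP value with AS. For G3BP2 the duplicates of GATA3, MYC and PHOX2A did not overlap between untreated and AS-treated cells. The share of all genes with such a gap was not counted, so it is not a result about these members. After scaling, GATA3 was at 2.18 ± 0.116 for G3BP1 in untreated and 2.11 ± 0.0987 in AS-treated cells, and at 2.14 ± 0.00998 and 2.08 ± 0.00611 for G3BP2 (mean log10 ± SD, n = 2). MYC was at 2.05 ± 0.279 and 2.08 ± 0.232 for G3BP1, and at 1.93 ± 0.0544 and 2.03 ± 0.0122 for G3BP2. MYCN was at 1.62 ± 0.051 and 1.44 ± 0.339 for G3BP1, and at 1.70 ± 0.115 and 1.73 ± 0.146 for G3BP2. TBX2 lay between 2.02 and 2.13 in the 4 groups and ISL1 between 1.57 and 1.89, its lowest mean being that of G3BP2 under AS. The duplicates of HAND2 under AS were far apart, at 0.82 and 2.06 for G3BP1 and 0.67 and 1.54 for G3BP2, as were those of PHOX2A for G3BP1 in untreated cells, at 1.62 and 0. SOX11 was at 1.03 ± 0.785 and 1.04 ± 0.772 for G3BP1 and at 0.81 ± 0.105 and 0.79 ± 0.256 for G3BP2.

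These values were tested with limma over all 8 libraries and 19259 genes. For AS against untreated 0 of 8 members had an adjusted p under 0.05, and the call rate over all genes was 0% for G3BP1 and 0% for G3BP2. At an unadjusted p under 0.05, 372 genes were higher and 404 lower for G3BP1, and 278 and 247 for G3BP2, none of them a member. The log10 change of PHOX2A was 0.41 ± 0.548 (SE) for G3BP1 and -0.41 ± 0.548 for G3BP2, that of HAND2 -0.05 ± 0.436 and -0.34 ± 0.436, and that of SOX11 0.01 ± 0.471 and -0.02 ± 0.471. GATA3 had the smallest error, with changes of -0.07 ± 0.104 for both proteins, and 95% intervals from -0.32 to 0.17 and from -0.31 to 0.18. For MYCN the values were -0.18 ± 0.197 and 0.02 ± 0.197, for MYC 0.02 ± 0.168 and 0.10 ± 0.168, for ISL1 -0.01 ± 0.161 and -0.23 ± 0.161, and for TBX2 0.00 ± 0.171 and 0.11 ± 0.171. The adjusted p of the members lay between 0.957 and 0.999 for G3BP1 and was 1 for G3BP2. A p above the threshold does not show that a value stayed the same, and with 2 libraries a group the 95% interval of SOX11 for G3BP1 ran from -1.11 to 1.12.

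G3BP1 and G3BP2 were compared in the same fit. No gene was called between them in untreated cells, in AS-treated cells, or in the interaction of AS and protein, which asks whether the AS change differs between the 2 proteins, so the call rate was 0% in each of the 3 comparisons. The numbers of genes at an unadjusted p under 0.05 were 159, 237 and 144, with no member among them. Every member had an adjusted p of 1 in these comparisons. The lowest unadjusted p of a member in limma, 0.10, was that of ISL1 in AS-treated cells, with scaled values of 1.83 and 1.92 for G3BP1 and 1.69 and 1.45 for G3BP2. Its groups did not overlap, for which the share over all genes was not counted either.

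Over the 5 TPM libraries, the genes with the profile most like each member were found by the Euclidean distance between log2(TPM + 1) values centred on their own mean, among 10746 genes above 10 TPM in at least 1 library. For MYCN they were ENC1 (distance 0.160) and EFNA3 (0.177), and for MYC SYNRG (0.091) and MEF2D (0.139). PHOX2A was nearest to RAB11B (0.111) and FADS3 (0.144), HAND2 to PABPC4 (0.104) and MIB2 (0.112), and GATA3 to MAPK7 (0.075) and MAGT1 (0.119). ISL1 was nearest to MAST1 (0.112) and WDR55 (0.116), and TBX2 to RIPOR1 (0.053) and CLDN15 (0.102). SOX11 had no close neighbour, with CSRNP3 at 0.323 and BAZ2B at 0.333. Among the members themselves TBX2 and HAND2 were closest, at 0.228, followed by GATA3 and ISL1 at 0.326 and MYCN and MYC at 0.660, whereas PHOX2A was 1.985 from its nearest member, HAND2, and SOX11 2.219 from MYCN.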

How the data were processed

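TPM per protein-coding gene was deposited for siCtrl, siG3BP1, siG3BP2, Total and SG, which the authors derived with StringTie from HISAT2 2.1.0 alignments to GRCh38. For the rRNA-depleted libraries the authors deposited RPKM per transcript from HISAT2 alignments, under a TPM header and with TPM from StringTie as the stated method, which the values do not match: with the annotated lengths, 100.0% of values above 0 gave whole reads within 0.02. For eCLIP the authors removed duplicate molecules with fastp, aligned with STAR and called peaks with CLIPper against SMInput, and deposited log10 values. Which steps the number behind them includes is not stated. The numbers sum to between about 4268911 and 26179736 per library, far more than the peaks that the paper reports. They are therefore not counts of those peaks. SMInput libraries were not analysed here. Coordinates, lengths and motifs came from GENCODE release 44 on GRCh38, which holds 19910 of the 19942 genes and 91.1% of the transcripts by ID.

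eCLIP numbers were scaled to the same total. A limma 3.58.1 model (R 4.3.3) of the log10 values, with its variance prior following mean intensity, was fitted to 19259 genes above 0 in at least 2 of 8 libraries, and p-values were adjusted by Benjamini-Hochberg with a threshold of 0.05. Tested on simulated data for G3BP1 AS against untreated, where 200 of 19259 genes had a log10 change of 1, it called 177 of them and 12 others, and for a change of 0.5 it called 126 and 7. The simulated noise was independent, depended only on the mean of a gene and was the same in all 8 libraries. Real libraries differ in total and deviate together, so these rates do not carry over to them. RNA-seq calls used fixed folds of 2 and 0.5 and a minimum of 1, and log2 ratios a pseudocount of 1. Counting intervals of read ratios are 95% exact binomial. Other computation used Python 3.11.15, pandas 2.3.3 and scipy 1.17.1.

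Named genes were the 8 members, G3BP1, G3BP2, from each list the 2 highest and 2 lowest log2 ratios among genes above 10 TPM (1 RPKM), and the 2 nearest profiles of each member. Examples in the text were drawn from these, apart from markers, which are given as levels, and 1 gene of a list is not reported here. The members, lists and tests were chosen with earlier results of these data known. Alternatives covered pseudocount, fold, minimum, scaling, transcript choice, the libraries in the fit, the replicate block and each eCLIP library left out.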

Additional observations from a re-analysis of the deposited data

How the results depend on the processing

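The RNA-seq comparisons rest on 1 library a group, TPM keeps no depth, and the eCLIP totals differ up to 6.13-fold, so that low eCLIP numbers such as those of SOX11 and PHOX2A limit what can be seen. With a fold of 1.5, 1 member was called in siG3BP2 (SOX11) and no member in siG3BP1 or AS. In SG all 8 were called, with PHOX2A (log2 -0.81) lower and the others higher. Of the 13560 genes tested in SG against Total, 11444 were then called in either direction, against 9810 at a fold of 2. With the median ratio set to 1, 5 members were called in SG against Total, 4 higher and PHOX2A lower. Counts over all genes moved with a fold of 1.5 from 764 to 1772 in siG3BP1, from 984 to 2252 in siG3BP2 and from 1149 to 3009 for AS. Without a minimum they came to 2760, 2997 and 3322, and with 1 transcript per gene the AS count was 679. Of the RNA-seq values of single members under the alternatives, 130 of 136 kept their side of the fold rule, 3 lost a call and 3 gained one.

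Under the replicate block the count of eCLIP calls stayed at 0 in all 5 comparisons, and 1143 genes had an unadjusted p under 0.05 for G3BP1 AS against untreated, against 776 without the block. Over 16476 genes, the deviations of same-numbered G3BP1 and G3BP2 libraries correlated at 0.544 in untreated and 0.477 in AS-treated cells. Across conditions the correlations lay between 0.11 and 0.176. The labels link these libraries only by a number. The main fit treated all libraries as independent, and the block used the same replicate term for both conditions. Unscaled values, a lower minimum and a fit of 4 libraries also gave 0 calls.

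Leaving out each eCLIP library in turn gave between 0 and 205 calls for G3BP1 AS against untreated, 0 and 176 for G3BP2 against G3BP1 under AS, and 0 and 24 for the interaction, and 0 in the other 2 comparisons. The upper counts came without replicate 1 of G3BP1 under AS, and no member was among them. A group left with 1 library is then assumed to vary like the others. The cause was not tested. With unscaled values, the log10 AS changes for G3BP1 were -0.09 for MYC and -0.10 for SOX11, and for G3BP2 -0.04 for MYCN, of opposite sign to the scaled ones. With 1 library left out, changes for G3BP1 crossed 0 for MYCN (-0.42 to 0.06), MYC (-0.17 to 0.22), PHOX2A (-0.40 to 1.22), HAND2 (-0.67 to 0.56), GATA3 (-0.15 to 0.01), ISL1 (-0.10 to 0.08), SOX11 (-0.55 to 0.56) and TBX2 (-0.15 to 0.16). For G3BP2 they crossed 0 for MYCN (-0.08 to 0.13), HAND2 (-0.78 to 0.09), SOX11 (-0.20 to 0.16) and TBX2 (-0.08 to 0.30). None of these changes had an adjusted p under 0.05.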
